A study of Mus musculus with 6 samples.

Results

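Autophagy is the process by which a cell wraps part of its own cytoplasm in a double membrane, the autophagosome, and delivers it to the lysosome for breakdown. With earlier results of these data known, 35 genes were chosen by name for their place in the machinery that builds the autophagosome. They are the genes of the ULK initiation complex, the class III PI3-kinase complex, the ATG9 vesicles and lipid transfer proteins, the ubiquitin-like conjugation enzymes, the ATG4 proteases, the LC3 and GABARAP proteins, and the cargo receptors SQSTM1, OPTN and NBR1. All 35 were measured, among 29752 tested genes or unnamed transcripts. The cells were BV2, an immortalized mouse microglial line, kept in serum-containing medium and given either recombinant mouse IL-4 at 10 ng/ml or PBS for 24 hr. No cells of another genotype were compared. IL-4 brings macrophages into the alternative, or M2, activation state, and the study's title asks about that state in microglia. Total RNA of 3 samples with IL-4 and 3 with PBS was labelled with Cy3 and hybridised to single-colour Agilent arrays, 1 array per sample. Nothing in the labels shows that replicates were separate cultures. The p-values therefore describe the spread among these 6 samples, and that spread may be technical.

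In growing cells the kinase mTORC1 holds the ULK kinases inactive. When nutrients fall, the ULK complex activates the class III PI3-kinase complex, which marks the forming membrane with the lipid PI3P. ATG9 vesicles and the lipid transfer proteins then supply membrane, the conjugation enzymes attach LC3 and GABARAP proteins to it, and cargo receptors bind those proteins and the material to be degraded. In microglia the pathway is known for clearing protein aggregates and for its links to inflammatory signalling. Much of its regulation acts on proteins, by phosphorylation, cleavage and lipid attachment. The arrays measured mRNA only.

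The files placed the arrays in 2 scans. The 3 IL-4 arrays and PBS replicate 1 share a scan time in the file headers and are called slide 1 here, and PBS replicates 2 and 3 share another and are called slide 2. A difference between IL-4 and all 3 PBS arrays can therefore hold a difference between slides, and the difference from PBS replicate 1 alone is given beside it. Per array, 34653 to 38649 of the 39429 probes exceeded background clearly, no spot was saturated, and arrays of a group correlated at 0.988 to 0.998 across tested probes. Precision is limited by having 6 arrays. Levels are log2 processed signals minus the 75th percentile of their array and are compared only within a probe. Of 12 microglia and macrophage markers, 11 were measured, with PBS levels from -2.80 to 3.80. Of these 11, 4 were lower with IL-4 at an adjusted p under 0.05 (limma), against 2.54% of all tested genes. They were Aif1, Tyrobp, Irf8 and Lyz2. Of the markers of neurons, astrocytes, oligodendrocytes and fibroblasts, 18 were measured, with PBS levels from -4.89 to 3.58, and 0 passed the same test. These ranges describe the probes and do not rank the genes. Their part in the differences described below was not tested.

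Of the 35 genes, 1 passed the test and 34 did not. Ulk2, a kinase of the initiation complex, fell with IL-4, and no gene of the machinery was called higher. A share of 2.86% of the 35 was therefore called, against 3.35% of all tested genes (limma, Benjamini-Hochberg adjusted p under 0.05), of which 2.54% were lower and 0.807% higher with IL-4. The groups did not overlap for 12 of the 35 genes (34.3%), against 38.5% of all tested genes. In 9 of these 12 the IL-4 arrays lay below every PBS array (Ulk2, Rb1cc1, Atg14, Ambra1, Atg2b, Atg5, Atg10, Atg4c and Gabarap), and in 3 above (Ulk1, Wipi2 and Sqstm1). The corresponding shares were 25.7% and 8.57% of the 35, against 19.8% and 18.7% of all tested genes. None of these 12 genes turned its sign in any of the alternatives in which it was tested. Groups that lie apart keep their sign whenever arrays are left out or only slide 1 is used. Those alternatives could therefore not turn it, and only a changed scale or probe could. The median log2 difference of the 35 was -0.12, against -0.05 over all tested genes, and 25 of 35 (71.4%) lay below 0, against 56.5%. Both the count of calls and the count of genes with groups apart were thus near the background.

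**Figure D1:**
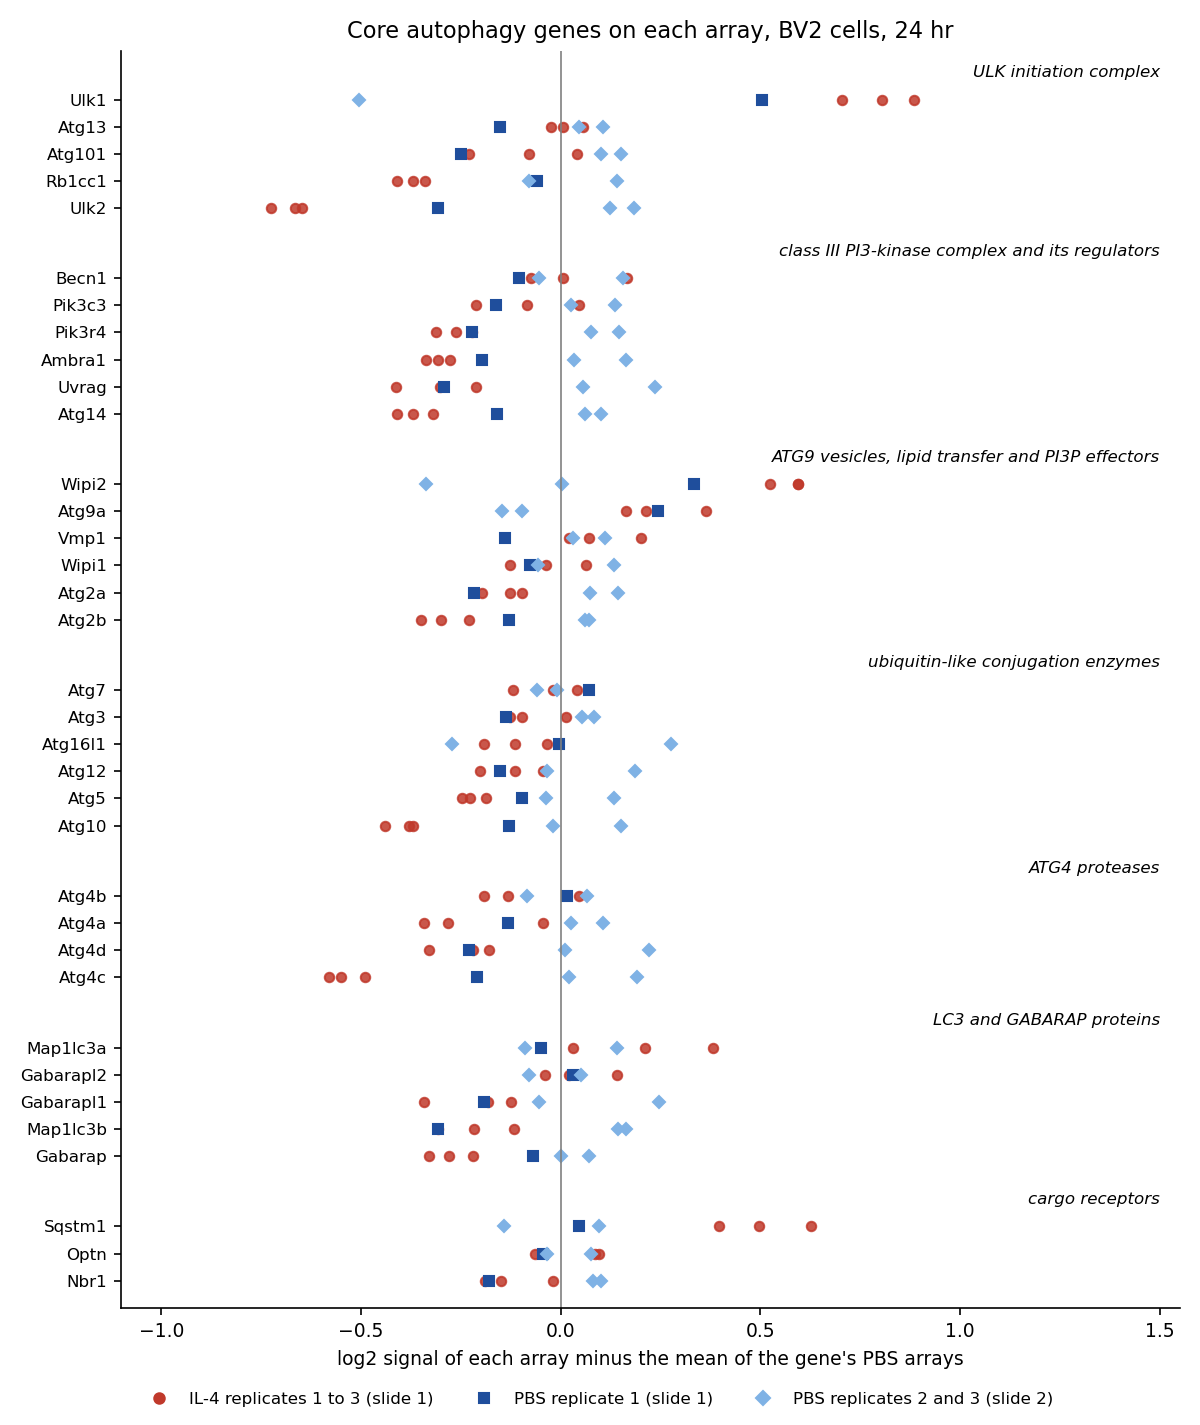
Log2 signal of the 35 core autophagy genes on each of the 6 arrays (horizontal axis), relative to the mean of the gene's PBS arrays, by role (vertical axis). Red circles are IL-4 arrays, dark blue squares PBS replicate 1 of slide 1, and light blue diamonds PBS replicates 2 and 3 of slide 2; Ulk1 has no value on PBS replicate 2. In 9 genes all red circles lie left of all PBS points and in 3 genes right of them, and PBS replicate 1 lies to the left of the mean of the other PBS arrays in 28 of 35 genes.

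Against the PBS array of the same slide the picture changed. Within slide 1 the median difference of the 35 was 0.01, as it was over all tested genes, and 17 of 35 (48.6%) lay below 0, against 48.8% of all tested genes. A fit with slide as a block estimates the same difference, and there 0 of the 35 passed (lowest adjusted p = 0.32, limma), against 0.0303% of all tested genes, and 4 of 35 (11.4%) had an unadjusted p under 0.05, against 10.2%. These were Ulk2, Rb1cc1, Atg4c and Sqstm1. Without the block, 11 of 35 (31.4%) had an unadjusted p under 0.05, against 34.1%. PBS replicate 1 lay below the mean of PBS replicates 2 and 3 in 28 of the 35 genes (80%), against 59.8% of all tested genes, with a median of -0.20 against -0.08. The within-slide values rest on a single PBS array.

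**Figure D2:**
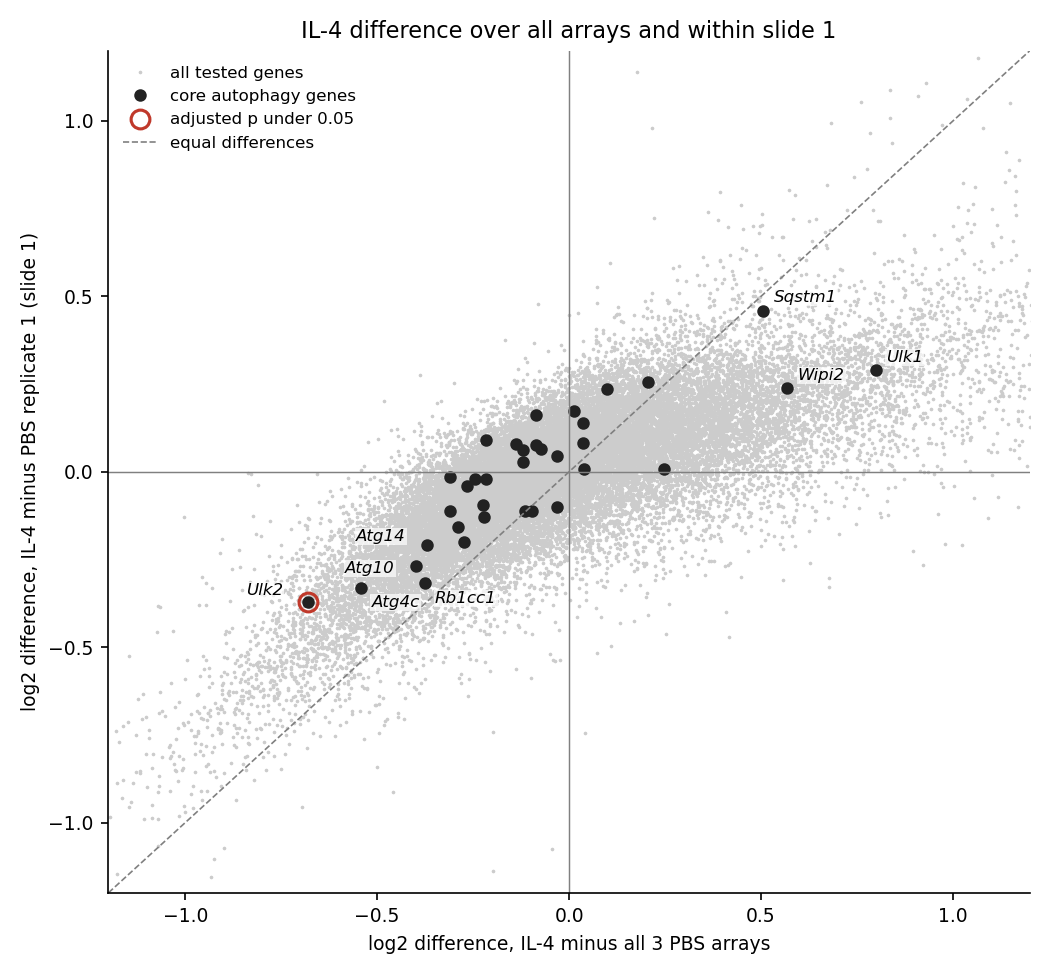
Log2 difference of IL-4 from all 3 PBS arrays (horizontal axis) and from PBS replicate 1 of the same slide (vertical axis). Grey points are 29287 of 29752 tested genes, with 465 outside the range drawn, black points the 35 autophagy genes, the red ring the gene with an adjusted p under 0.05, and the dashed line marks equal values. Sqstm1 and Rb1cc1 lie close to the line, while Ulk1 and Wipi2 lie well below it and Ulk2 above it, so that their differences were smaller within the slide.

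The stretches around the transcription starts of 3 genes are shown, with the genes chosen by their measured differences. Ulk2 is the gene that fell, Ulk1 its paralogue with the highest log2 difference, and Sqstm1 the gene with the highest difference within slide 1. The windows run from 250 bases before to 50 after the start, 5′ to 3′ on the strand of the gene, and come from RefSeq on GRCm38.p6. They lie on the minus strand at chr11:61855043-61855342 for Ulk2, chr5:110810032-110810331 for Ulk1 and chr11:50210771-50211070 for Sqstm1. Capitals mark a match to TGACNNNGC, the core of the antioxidant response element bound by NRF2.
Ulk2: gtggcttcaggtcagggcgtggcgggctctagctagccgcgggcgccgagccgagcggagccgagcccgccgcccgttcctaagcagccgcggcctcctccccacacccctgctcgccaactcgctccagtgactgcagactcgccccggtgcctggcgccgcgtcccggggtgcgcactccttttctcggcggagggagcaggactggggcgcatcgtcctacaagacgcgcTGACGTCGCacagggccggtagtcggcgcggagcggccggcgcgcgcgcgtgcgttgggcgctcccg
Ulk1: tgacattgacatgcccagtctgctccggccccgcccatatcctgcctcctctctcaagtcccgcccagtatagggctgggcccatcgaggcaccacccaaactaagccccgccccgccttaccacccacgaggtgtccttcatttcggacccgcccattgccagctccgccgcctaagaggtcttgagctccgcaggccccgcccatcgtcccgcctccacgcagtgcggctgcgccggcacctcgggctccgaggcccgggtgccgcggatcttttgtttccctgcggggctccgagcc
Sqstm1: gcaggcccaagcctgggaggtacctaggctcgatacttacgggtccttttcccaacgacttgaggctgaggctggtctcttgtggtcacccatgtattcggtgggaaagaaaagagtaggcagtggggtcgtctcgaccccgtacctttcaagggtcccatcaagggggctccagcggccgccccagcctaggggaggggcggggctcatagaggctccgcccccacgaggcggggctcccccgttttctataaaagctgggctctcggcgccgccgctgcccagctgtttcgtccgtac
Windows were found for 29 of the 35 genes, and none for Rb1cc1, Becn1, Pik3c3, Atg12, Atg16l1 and Map1lc3a. TGACNNNGC, searched on both strands, was held by 4 of 29 genes (13.8%), Ulk2, Atg13, Map1lc3b and Vmp1, against 14.0% of the 27025 genes with a window. CACGTG, which reads the same on both strands and is the core of the sites of the lysosomal regulator TFEB, was held by Atg3, Atg5, Atg7 and Atg14 (13.8%, against 8.09%). Its extended form TCACGTGA, which contains it, was held by Atg3 alone (3.45%, against 1.13%). The median share of G and C was 60.2% in the windows of these genes and 52.7% in all windows. Its part in the shares with a match was not tested. The windows of Ulk1 and Sqstm1 held none of the 3. A match is a description of the letters and does not show binding.

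The ULK initiation complex held both the gene that fell and the gene with the highest log2 difference. Ulk2 had levels of -1.22, -1.24 and -1.30 with IL-4 and of -0.88, -0.39 and -0.45 with PBS. All IL-4 arrays lay below all PBS arrays, and PBS replicate 1 was the nearest of the controls. Ulk2 thus fell by 0.68 ± 0.14 (SE) on the log2 scale, 1.60 times lower (adjusted p = 0.0492, limma, n = 3 arrays per group). Within slide 1 the difference was -0.37 (adjusted p = 0.32 with slide as a block). A dimmer probe of Ulk2 read -1.98, -1.59 and -1.76 with IL-4 and -0.96, -0.54 and -0.67 with PBS, a log2 difference of -1.05 ± 0.15 (SE), and of -0.82 within slide 1. Its groups did not overlap either. Over 19 alternatives Ulk2 was called in 9, with adjusted p from 0.000845 to 0.41. The lowest came without PBS replicate 1, where every IL-4 array is on slide 1 and every PBS array on slide 2. Leaving out any other single array ended the call, and those omissions left 0 to 3 of all tested genes called.

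Ulk1, the other kinase of the pair and the main target of mTORC1 and AMPK in this complex, differed in the opposite direction without passing the test. It had levels of 6.17, 5.99 and 6.09 with IL-4, 5.79 on PBS replicate 1 and 4.78 on PBS replicate 3, while its spot on PBS replicate 2 carried an outlier mark and was left out. The groups did not overlap, but the 2 PBS arrays lay further apart than PBS replicate 1 lay from any IL-4 array. The log2 difference was 0.80 ± 0.28 (SE; adjusted p = 0.098, n = 3 and 2 arrays), and within slide 1 it was 0.29. Without PBS replicate 1 the difference was 1.31 and rested on 1 PBS array, on a different slide from every IL-4 array. Of the 872 tested genes with a mean level above 5, as Ulk1 has, the median log2 difference was 0.20 over all arrays and 0.16 within slide 1, against -0.05 and -0.003 for the 21012 genes below 0. With quantile normalization Ulk1 differed by 0.61 (adjusted p = 0.12). The part of signal level in the difference of Ulk1 was not tested.

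Rb1cc1 encodes FIP200, the scaffold on which the complex assembles. Its levels were -0.35, -0.28 and -0.31 with IL-4 and 0.00, 0.20 and -0.02 with PBS. The groups lay apart, and PBS replicate 1 sat among the other controls. The log2 difference was -0.38 ± 0.10 (SE; adjusted p = 0.064, limma, n = 3 per group) and it was -0.32 within slide 1, so that most of it was also present on a single slide. A dimmer probe of Rb1cc1 read -1.52, -1.26 and -1.36 with IL-4 and -0.71, -0.51 and -0.66 with PBS, a difference of -0.76 ± 0.11 (SE), or -0.67 within slide 1. With the mean of both probes in place of the brighter, Rb1cc1 differed by -0.57 and was called (adjusted p = 0.0447). Rb1cc1 was called in 7 of 19 alternatives, with adjusted p from 0.0176 (without PBS replicate 1) to 0.47 (slide as a block). Atg13 and Atg101, the regulatory subunits, differed by 0.01 ± 0.11 and -0.09 ± 0.14 (SE), with groups that overlapped. Within slide 1, Atg13 and Atg101 were at 0.17 and 0.16.

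**Figure D3:**
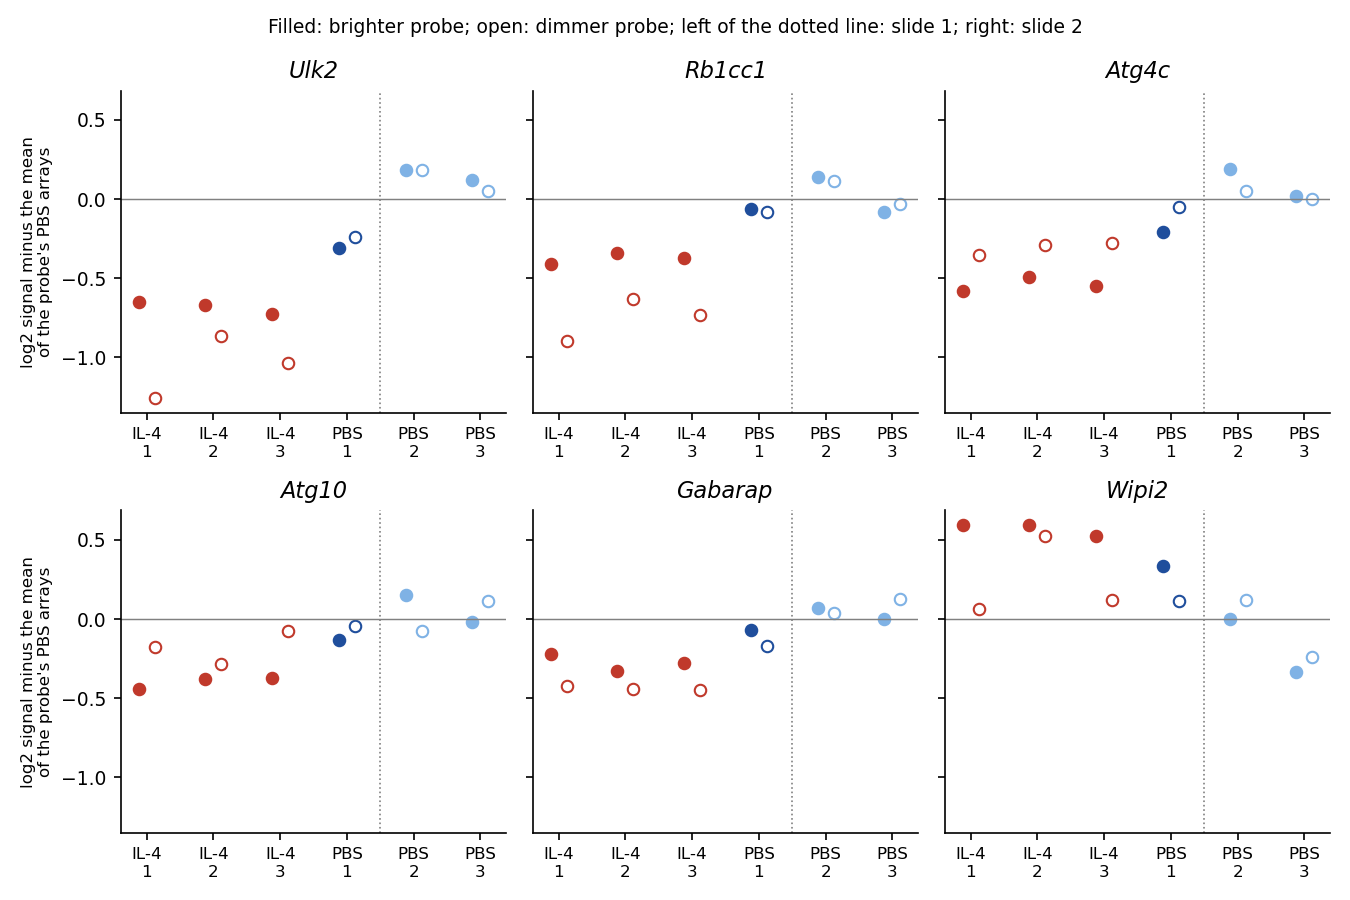
Log2 signal of both probes of 6 autophagy genes on each array (horizontal axis), relative to the mean of that probe's PBS arrays (vertical axis). Filled points are the brighter probe, which stands for the gene, and open points the dimmer; red is IL-4, dark blue PBS replicate 1 and light blue PBS replicates 2 and 3. For Ulk2 and Rb1cc1 the dimmer probe gave the greater distance between groups, for Atg4c, Atg10 and Wipi2 the brighter.

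Besides Ulk2 and Rb1cc1, the other genes with more than 1 probe can be compared in the same way. In all, 10 of the 35 genes had 2 tested probes, and both probes had the same sign over all arrays in each of the 10. Probes of a gene were read on the same arrays, so a difference between slides can enter both. The pairs could still differ in size. For Wipi2 they gave 0.57 and 0.24, for Atg4c -0.54 and -0.30, for Atg10 -0.40 and -0.18, for Gabarap -0.27 and -0.44 and for Atg7 -0.03 and -0.29. The remaining pairs, of Atg12, Pik3c3 and Wipi1, stayed between -0.25 and -0.02 over all arrays. Within slide 1 these pairs lay above 0, at 0.03 and 0.09 for Atg12, 0.08 and 0.14 for Pik3c3 and 0.04 and 0.05 for Wipi1.

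None of 6 genes of the class III PI3-kinase complex and its regulators passed the test, and 5 lay below 0, with a median of -0.29. Atg14, the subunit that directs the complex to autophagosome formation, had levels of -2.08, -2.04 and -1.99 with IL-4 and of -1.83, -1.61 and -1.57 with PBS. The groups did not overlap, and PBS replicate 1 was again the nearest control. The log2 difference was -0.37 ± 0.11 (SE; adjusted p = 0.069, limma, n = 3 per group), and -0.21 within slide 1. Ambra1, an adaptor of Beclin 1, also had groups apart, at -0.31 ± 0.12 (SE), with -0.11 within slide 1. Uvrag, the subunit of the endosomal form of the complex, and Pik3r4, the regulatory kinase subunit VPS15, differed by -0.31 ± 0.15 and -0.26 ± 0.12 over all arrays, but by -0.02 and -0.04 within slide 1. Their groups overlapped, since PBS replicate 1 lay among the IL-4 arrays of Uvrag and read -0.12, the value of IL-4 replicate 1, for Pik3r4. The catalytic subunit Pik3c3 and the scaffold Becn1 (Beclin 1) differed by -0.08 ± 0.12 and 0.04 ± 0.12 (SE), with 0.08 and 0.14 within slide 1. Within slide 1 the median of the 6 genes was -0.03.

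Among the 6 genes of ATG9 vesicles, lipid transfer and PI3P binding, none passed and 3 lay below 0. Wipi2, which binds PI3P and recruits the conjugation machinery, had levels of 5.90, 5.90 and 5.83 with IL-4 and of 5.64, 5.31 and 4.97 with PBS. The IL-4 arrays lay within a narrow range above every PBS array, while the PBS arrays were spread widely. The difference was 0.57 ± 0.16 (SE; adjusted p = 0.0675, limma, n = 3 per group) and 0.24 within slide 1. With quantile normalization it was 0.38, and since its mean level is also above 5, the medians of such genes given beside Ulk1 apply to it as well. Atg9a, the membrane protein and lipid scramblase of the vesicles, had levels of -2.37, -2.57 and -2.52 with IL-4 and of -2.49, -2.88 and -2.83 with PBS. PBS replicate 1 lay among the IL-4 arrays and both controls of slide 2 lay below them. The difference of 0.25 ± 0.13 (SE) over all arrays was 0.01 within slide 1. Atg2b, a lipid transfer protein, had groups apart at -0.29 ± 0.10 (SE; -0.16 within slide 1), and its paralogue Atg2a differed by -0.14 ± 0.12 (SE; 0.08 within slide 1). Wipi1 and the scramblase gene Vmp1 differed by -0.03 ± 0.11 and 0.10 ± 0.11 (SE), with 0.04 and 0.24 within slide 1.

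All 6 genes of ubiquitin-like conjugation lay below 0, from -0.40 to -0.03, and none passed. Atg10, the enzyme that joins ATG12 to ATG5, had levels of -0.18, -0.12 and -0.11 with IL-4 and of 0.13, 0.41 and 0.24 with PBS. The groups lay apart, at a difference of -0.40 ± 0.11 (SE; adjusted p = 0.063, limma, n = 3 per group), and -0.27 within slide 1. Atg5, the acceptor of ATG12, likewise had groups apart, at -0.22 ± 0.10 (SE), with -0.13 within slide 1. The others overlapped. Atg7, the activating enzyme of both conjugation systems, differed by -0.03 ± 0.10, Atg3, which conjugates LC3 to lipid, by -0.07 ± 0.11, Atg12 by -0.12 ± 0.12 and Atg16l1, which places the complex on the membrane, by -0.11 ± 0.15 (SE). Within slide 1, Atg3 and Atg12 were at 0.07 and 0.03 and the other 4 genes below 0, with Atg7 at -0.10 and Atg16l1 at -0.11.

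The 4 ATG4 proteases, which cut LC3 and GABARAP proteins before conjugation and release them afterwards, all lay below 0 over all arrays and within slide 1, and none passed. Atg4c had levels of -0.45, -0.36 and -0.42 with IL-4 and of -0.08, 0.32 and 0.15 with PBS. No IL-4 array reached the lowest PBS array, again PBS replicate 1. The difference was -0.54 ± 0.12 (SE; adjusted p = 0.052, limma, n = 3 per group), -0.33 within slide 1, and the dimmer probe gave -0.30 ± 0.09 (SE) with -0.26 within slide 1. Atg4c was called in 8 of 19 alternatives, with adjusted p from 0.00284 to 0.44. The lowest came without PBS replicate 1, where treatment and slide coincide. Atg4d and Atg4a differed by -0.25 ± 0.13 and -0.23 ± 0.12 (SE), or -0.02 and -0.10 within slide 1. Atg4b, the protease with the broadest activity, differed by -0.10 ± 0.11 (SE), with -0.11 within slide 1. The groups of all 3 overlapped.

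The 5 LC3 and GABARAP genes, whose products carry the lipid tag on the membrane, lay on both sides of 0, and none passed. Map1lc3a had levels of 0.47, 0.12 and 0.30 with IL-4 and of 0.04, 0.23 and 0.00 with PBS. Its groups overlapped, at a difference of 0.21 ± 0.12 (SE; adjusted p = 0.27, limma, n = 3 per group) and 0.26 within slide 1. Map1lc3b, the form most often followed as LC3, had levels of 2.93, 2.74 and 2.83 with IL-4 and of 2.74, 3.21 and 3.19 with PBS. Both controls of slide 2 lay above the IL-4 arrays and PBS replicate 1 at their lower end, so that the difference was -0.22 ± 0.15 (SE) over all arrays and 0.09 within slide 1. Gabarap had groups apart at -0.27 ± 0.10 (SE; adjusted p = 0.099), and -0.20 within slide 1. Gabarapl1 differed by -0.22 ± 0.14 and Gabarapl2 by 0.04 ± 0.10 (SE), with -0.02 and 0.01 within slide 1.

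Of the 3 cargo receptors only Sqstm1 had groups that did not overlap. Sqstm1, also called p62, links ubiquitinated proteins to LC3, is itself degraded by autophagy, and is a target gene of NRF2. Its levels were 3.58, 3.35 and 3.45 with IL-4 and 3.00, 3.05 and 2.81 with PBS. Every IL-4 array lay above every PBS array, and PBS replicate 1 lay between the controls of slide 2. The difference was 0.51 ± 0.11 (SE), 1.42-fold, and missed the threshold (adjusted p = 0.052, limma, n = 3 per group). At 0.46 it was nearly as large within slide 1 (adjusted p = 0.36 with slide as a block), where it was the highest of the 35. Sqstm1 was called in 7 of 19 alternatives, among them quantile normalization (0.48, adjusted p = 0.037) and the authors' table (0.51, adjusted p = 0.032), and its difference stayed between 0.43 and 0.56 in all 19. Optn and Nbr1, receptors for ubiquitinated cargo as well, differed by 0.04 ± 0.10 and -0.12 ± 0.12 (SE), with 0.08 and 0.06 within slide 1.

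A further 86 genes that act before, beside or after this machinery were listed as well, of which Calcoco1 had no matched probe and was not analysed here. Of the 85 tested, 6 were called lower, 0 were called higher and 79 did not pass. This is a share of 7.06% called, all lower with IL-4, against 3.35% of all tested genes, or 2.54% called lower. Groups did not overlap in 37 of 85 (43.5%), against 38.5%. The IL-4 arrays lay below every PBS array in 31 of the 85 and above in 6, against 19.8% and 18.7% of all tested genes. Over all arrays 64 of 85 lay below 0, against 56.5% of all tested genes. Within slide 1 it was 49 of 85, against 48.8%. The median difference was -0.16 over all arrays and -0.04 within slide 1, against -0.05 and 0.01 over all tested genes. With slide as a block none of the 85 passed (lowest adjusted p = 0.16, limma), against 0.0303% of all tested genes. An unadjusted p under 0.05 was found for 9 of the 85, against 10.2% of all tested genes.

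Of the 6 genes that fell, 2 were in the list of autophagosome-lysosome fusion, 2 in that of other assembly genes and 2 among the other cargo receptors, and 0 among the nutrient-sensing and transcription regulators. Stx17, the SNARE of the completed autophagosome, had levels of -3.57, -3.26 and -3.52 with IL-4 and of -2.60, -2.41 and -2.31 with PBS. The groups were far apart, and Stx17 fell by 1.01 ± 0.13 (SE) on the log2 scale (adjusted p = 0.025, limma, n = 3 per group), with -0.85 within slide 1. Its other probes did not show the same size. A probe of nearly the same level gave -0.14 ± 0.10 and the dimmest -0.53 ± 0.12 (SE), and the mean of the 3 probes gave -0.56 (adjusted p = 0.044). Vamp8, the lysosomal SNARE that pairs with STX17, read -0.24, -0.29 and -0.26 with IL-4 and 0.26, 0.28 and 0.35 with PBS. Each group kept to a narrow range, and Vamp8 fell by 0.56 ± 0.09 (SE; adjusted p = 0.035), nearly all of it within slide 1 (-0.52). These were the 2 called of 16 genes of autophagosome-lysosome fusion. The highest difference in that list was that of Vps39, a tethering subunit, at 0.35 ± 0.21 (SE), with 0.0005 within slide 1 and no value on PBS replicate 2.

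Among 20 other genes of autophagosome assembly, Rubcn and Tecpr1 fell. Rubcn encodes Rubicon, an inhibitor of the UVRAG form of the class III PI3-kinase complex, and read 1.25, 1.16 and 1.19 with IL-4 and 1.81, 2.20 and 2.07 with PBS. The groups lay far apart at -0.83 ± 0.12 (SE; adjusted p = 0.028, limma, n = 3 per group), with -0.61 within slide 1, and a much dimmer probe gave -0.51 ± 0.14 (SE). Tecpr1, a lysosome-associated factor of autophagosome maturation, read 2.66, 2.63 and 2.62 with IL-4 and 3.04, 3.36 and 3.20 with PBS. Its groups lay apart too, at -0.56 ± 0.11 (SE; adjusted p = 0.045) and -0.40 within slide 1. The highest in this list was Zfyve1, a PI3P-binding protein of omegasomes, at 0.39 ± 0.19 (SE) and 0.03 within slide 1.

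Of 19 other cargo receptors and their regulators, Fundc1 and Ncoa4 fell. Fundc1, a mitophagy receptor of the outer mitochondrial membrane, read -1.11, -0.88 and -0.78 with IL-4 and -0.45, -0.19 and -0.15 with PBS. Ncoa4, the receptor that carries ferritin to the lysosome, read 4.11, 4.07 and 4.03 with IL-4 and 4.52, 4.77 and 4.51 with PBS. Both had groups that did not overlap. The differences were -0.66 ± 0.13 for Fundc1 and -0.53 ± 0.11 for Ncoa4 (SE; adjusted p = 0.045 and 0.048, limma, n = 3 per group), and -0.48 and -0.45 within slide 1.

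None of 30 nutrient-sensing and transcription regulators passed. Their median was -0.15, and -0.04 within slide 1. Sesn2, a stress-induced inhibitor of mTORC1, had the highest value, with levels of 4.48, 4.65 and 4.63 with IL-4 and of 4.41, 3.98 and 3.38 with PBS. The groups lay just apart because PBS replicate 1 was close to the IL-4 arrays. The difference was 0.66 ± 0.23 (SE; adjusted p = 0.097, limma, n = 3 per group), and 0.17 within slide 1. Foxo1, a transcription factor known to induce autophagy genes, had the lowest, -0.53 ± 0.14 (SE; adjusted p = 0.059) and -0.25 within slide 1. Tfeb, added here for its link to CACGTG after its values were seen, differed by -0.33 ± 0.12 (SE), with -0.15 within slide 1. Nfe2l2, which encodes NRF2, was added in the same way for TGACNNNGC. It differed by -0.51 ± 0.16 (SE; adjusted p = 0.075, limma), with groups apart, and by -0.18 within slide 1.

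**Figure D4:**
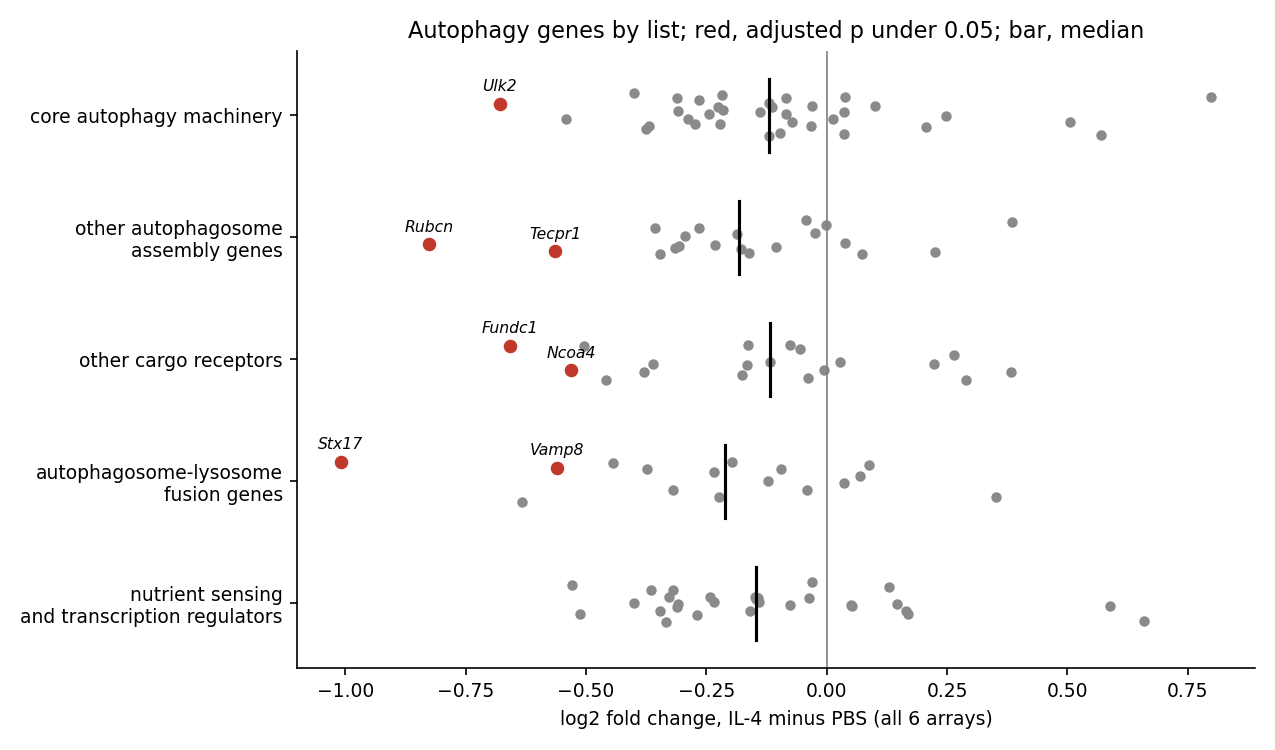
Log2 fold change of IL-4 against PBS over all 6 arrays (horizontal axis) for the 35 core genes and the 4 further lists (vertical axis, points spread for view). Red points have an adjusted p under 0.05 and are named, grey points do not, and black bars are medians. Of the 7 named genes all lie below 0, and the medians run from -0.21 for fusion genes to -0.12 for core genes and for cargo receptors.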

How the data were processed

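The authors' scanner files give spot intensity values made with Agilent Feature Extraction (version 11.0.1.1, per the file headers), background subtracted but on each array's own scale. A table of log2 values that the authors deposited served only as an alternative, with its normalization method not given in the sources used here. Outlier-marked spots (87 to 394 per array) and controls were dropped, copies of a probe averaged, and each array's 75th percentile subtracted on the log2 scale. A probe was tested where all arrays of IL-4 or all of PBS were well above background, and the brightest tested probe stood for its gene. RefSeq symbols were matched by accession (27234 of 39429 probes, 69.1%). The sample labels say PBS where the design text says untreated. The samples' description field mentions human blood, whereas their titles, organism and cell line fields give mouse BV2 cells, which are used here.

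IL-4 was compared with PBS by limma 3.58.1 (lmFit and eBayes, R 4.3.3) over 29752 tested genes with no block, and all adjusted p-values are Benjamini-Hochberg values of limma, called under 0.05. There were 19 alternatives, including slide (from scan times) as a block. Normexp used an offset of 50 and the median spot signal, as no mean signal is given. The steps were tested on simulated data. Values on each array are given for called genes, the 5 highest and 5 lowest log2 differences, and where they show overlap. In the further lists the called, highest and lowest genes were named, except 1 that is not reported here. Genes, lists and tests were chosen with earlier results of these data known.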

Additional observations from a re-analysis of the deposited data

How the results depend on the processing

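Counts of called genes moved with most settings, against 1 core gene, 6 further genes and 997 of all tested genes (24.1% of them higher with IL-4) as reported. For core, further and all genes in that order, quantile normalization gave 5, 11 and 2636, normexp with the 75th percentile 6, 14 and 4055 (50.1% higher), normexp with quantile 7, 12 and 3077, and the filter for signal above background on each of 6 arrays 6, 11 and 3808 (48.1% higher). The 75th percentile over probes detected on all arrays gave 0, 3 and 523, no filter on dim probes 0, 0 and 15, slide as a block 0, 0 and 9 (66.7% higher), and slide 1 alone 0, 0 and 1. For core and all genes, median scaling gave 2 and 1733, the values deposited by the authors 5 and 2288, and the mean of a gene's probes 2 and 605. Leaving out single arrays gave 0 to 16 core genes, 0 to 40 further genes and 0 to 12654 of all genes. The upper counts came without PBS replicate 1 (16, 40 and 12654). There every IL-4 array is on slide 1 and every PBS array on slide 2, so treatment and slide cannot be told apart. The median of the further genes was then -0.23 (range over single omissions -0.23 to -0.12). Every other omission left 0 core and 0 further genes. Leaving out the arrays in the first slide position (IL-4 replicate 1 and PBS replicate 2, whose local background was higher), chosen after seeing the data, left 0, 0 and 0. Both the slide block and slide 1 alone gave medians of 0.0081 for core and -0.038 for further genes. Within slide 1, normexp with the 75th percentile called 1 core gene, Sqstm1 (2.61% of all genes called). An omission also leaves fewer arrays, and a filter changes the number of genes. The cause of these moves was not tested.

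Whether the replicate numbers pair the arrays was not settled. Deviations of arrays with the same number correlated at 0.08, -0.02 and 0.29, and 2 of 3 IL-4 arrays correlated best with the PBS array of their number. The deviations of the PBS arrays also hold the difference between slides, so this check cannot decide the question. With a replicate block the counts were 4 core, 10 further and 3770 of all genes (47.9% higher).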
